A study of Mus musculus with 8 samples.

Results

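The 37 genes described here are all those that the deposited expression table places on chromosome MT, the mitochondrial DNA, out of 55933 genes in the table. They are 13 messenger RNA genes, 2 ribosomal RNA genes and 22 transfer RNA genes, and they were chosen by position alone. Of the 37, 30 had a mean of at least 0.5 FPKM (fragments per kilobase of gene length, normalised to depth) over the 8 libraries and were tested, namely 12 messenger RNAs, both ribosomal RNAs and 16 transfer RNAs. The 7 others were mt-Atp8, mt-Ti, mt-Tk and 4 transfer RNA genes without a read in any library (mt-Tf, mt-Tv, mt-Ts1 and mt-Td). The question was whether RNA of the mitochondrial genome differed between the groups by the same factor in every gene.

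RNA-seq libraries, 1 for each mouse, were made from the mammary epithelium of 4 control mice and 4 mice with a conditional knockout of Bmpr1a (cKO), all C57BL/6 and at pregnancy day 14.5. The cKO mice carried K14-rtTA, teto-Cre and Bmpr1a fl/fl and received doxycycline (Dox) in the drinking water, so that Cre was switched on in cells with an active K14 promoter, which in this gland are the myoepithelial cells. The controls were littermates that the labels call WT, and their transgenes and Dox treatment are not given in the sources used here. The glands were digested with collagenase and hyaluronidase and red blood cells were lysed, and the cells were not sorted, so each value is an average over all cells of the preparation. In such bulk samples, fewer cells of a type and less RNA per cell cannot be told apart.

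Mitochondria keep a small circular genome whose messenger RNAs encode core subunits of the respiratory chain and of the ATP synthase. Its ribosomal and transfer RNAs serve the translation of these messenger RNAs inside the organelle. Both strands are transcribed as long precursors, from which transfer RNAs are cut out between the larger RNAs, and all other mitochondrial proteins are encoded in the nucleus and imported. In the pregnant gland, luminal cells prepare for milk secretion, a task with a high demand for ATP.

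Reads on genes numbered 16123108 to 19896988 per library, and the deposited FPKM already included size factors. Bmpr1a, the targeted BMP receptor gene, had 8.74 to 11.7 FPKM in the control and 10.2 to 12.03 FPKM in the cKO libraries, with means of 10.1 ± 1.28 and 11.2 ± 1.01 (SD, n = 4 each) and overlapping groups (p = 0.257 in a two-sided exact permutation test). Its RNA was therefore no lower in cKO libraries, and directions below rest on the labels. Gene values do not show the floxed part alone, and the paper reports Bmpr1a in luminal cells too, so the deletion was not tested here. Luminal keratins (Krt8 at 1444 FPKM or more) and myoepithelial Krt14 (490.1 FPKM or more) were present in every library. Libraries of replicates 1 and 2 and of replicates 3 and 4 deviated together in both groups, so log2 differences within these sets are given beside the pooled ones for the MT genes described below, singly or as a range.

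A stretch of the mitochondrial genome has a near-identical counterpart in nuclear DNA, and the genes inside it are described apart from the others below. From base 6390 to base 11042 of MT, 4653 bases from the last part of mt-Co1 to the first part of mt-Nd4, 7 annotated pseudogenes lie in the same order on chromosome 1 of GRCm38, from 24611535 to 24616197 on the minus strand. The copies are Gm29216 of mt-Co1, Gm28661 of mt-Co2, Gm10925 of mt-Atp6, Gm28437 of mt-Co3, Gm28438 of mt-Nd3, Gm10222 of mt-Nd4l and Gm28439 of mt-Nd4. Over the aligned 294 to 876 bases, 5 of them were identical to the MT gene (100%), Gm29216 was 99.8% identical, with the substitution A1066T, and Gm28438 was 99.7% identical, with T3C. Positions are counted from 1 at the 5′ end of the MT gene, whose base comes first. The spacing of neighbouring copies equalled that of the MT genes, apart from 75 against 74 bases between Gm28438 and Gm10222.

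The pair of mt-Nd4l and Gm10222 is shown whole, because a read that falls within the copied 294 bases carries no mark of its origin. The sequences are from GENCODE M21 transcripts (GRCm38), for mt-Nd4l at MT 9877 to 10173 on the plus strand and for Gm10222 at chromosome 1 24612407 to 24612700 on the minus strand, and capitals mark the stop codon of mt-Nd4l, which lies past the annotated end of Gm10222 and within the next copy, Gm28439.
mt-Nd4l: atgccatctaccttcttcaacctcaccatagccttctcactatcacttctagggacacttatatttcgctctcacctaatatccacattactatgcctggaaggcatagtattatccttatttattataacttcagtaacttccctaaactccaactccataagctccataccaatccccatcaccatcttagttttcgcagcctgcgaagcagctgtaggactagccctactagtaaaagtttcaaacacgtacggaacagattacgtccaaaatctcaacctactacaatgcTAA
Gm10222: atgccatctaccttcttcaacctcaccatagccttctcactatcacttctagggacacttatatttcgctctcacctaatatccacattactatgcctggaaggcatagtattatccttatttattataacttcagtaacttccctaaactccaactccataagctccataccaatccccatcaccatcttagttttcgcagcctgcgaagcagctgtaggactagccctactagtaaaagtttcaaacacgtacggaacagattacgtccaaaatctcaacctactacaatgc

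Sequence sharing was measured as the percent of a gene's 100-base windows that are found unchanged in an annotated nuclear transcript. It was 99.5% for mt-Co2 and mt-Atp6, 99.9% for mt-Co3, 98.5% for mt-Nd4l, 97.6% for mt-Nd3, 60.8% for mt-Nd4, 30.8% for mt-Co1 and 3.19% for mt-Nd2. It was 0% for mt-Nd1, mt-Nd5, mt-Nd6, mt-Cytb and both ribosomal RNAs. The transfer RNA genes, of 59 to 75 bases, are shorter than such a window. mt-Atp8 was at 0% as well. Its last 43 bases, which it shares with mt-Atp6, lie within Gm10925 and are fewer than a window, and its other bases lie between the places of Gm28661 and Gm10925, which are 234 bases apart on both chromosomes.

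The levels of the messenger RNAs fell into separate ranges on either side of this division. The 7 messenger RNAs that are not wholly inside the copied stretch had means of 722 to 5038 FPKM over the 8 libraries, and the 6 that are wholly inside it (mt-Co2, mt-Atp8, mt-Atp6, mt-Co3, mt-Nd3 and mt-Nd4l) had means of 0.236 to 53.7 FPKM. mt-Nd5, the lowest of the first set, was 13.4-fold above mt-Co2, the highest of the second, and was higher in 8 of 8 libraries. How reads that map to more than 1 place were handled is not given in the sources used here, and the part of the copies in these low levels was not tested. FPKM are per length, but how well they compare genes that share sequence with nuclear transcripts was not tested. This includes mt-Nd4 and mt-Co1, which are shared in part. In descending order the means ran mt-Co1, mt-Cytb, mt-Nd1, mt-Nd2, mt-Nd4, mt-Nd6, mt-Nd5, mt-Co2, mt-Atp6, mt-Co3, mt-Nd3, mt-Nd4l and mt-Atp8. Each neighbouring pair kept its order in 8 of 8 libraries, except mt-Co3 and mt-Nd3, whose order held in 5 of 8.

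**Figure D1:**
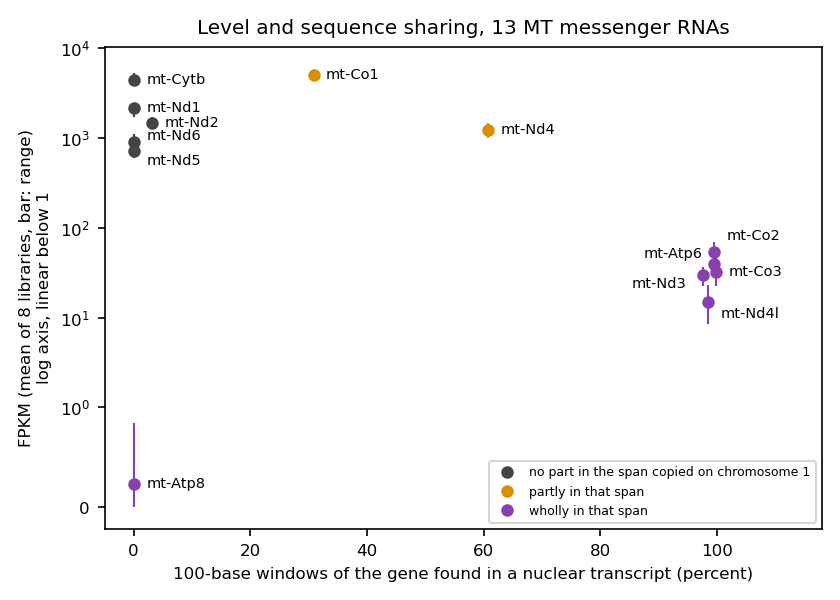
Mean FPKM over the 8 libraries of each of the 13 MT messenger RNAs (vertical axis, logarithmic and linear below 1, bars from the lowest to the highest library) against the percent of its 100-base windows found in a nuclear transcript (horizontal axis), coloured by position relative to the stretch copied on chromosome 1. The 5 genes with 97.6% to 99.9% shared windows lie at mean levels of at most 53.7 FPKM, and mt-Atp8, which lies in the same stretch with 0% shared windows, lies at 0.236.

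MT genes held a larger share of the reads in the cKO than in the control libraries, by a factor of 1.20. The share was 1.83, 1.93, 1.88 and 1.84% of reads on genes in control replicates 1 to 4, with a mean of 1.87 ± 0.0465% (SD, n = 4). It was 2.23, 2.36, 2.14 and 2.25% in cKO replicates 1 to 4, with a mean of 2.24 ± 0.0886% (SD, n = 4). No control library reached the lowest cKO library, and the shares rest on 303992 to 446966 reads per library. Nearly all of these reads lay on messenger RNAs, which held 1.83 ± 0.0496% of reads in control and 2.20 ± 0.0857% in cKO libraries. mt-Co1 and mt-Cytb alone held 62.7 ± 0.838% of the MT reads in control and 63.1 ± 0.213% in cKO libraries, with overlapping groups.

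Ribosomal RNAs held 0.0356 ± 0.00608% of reads in control and 0.0450 ± 0.00773% in cKO libraries, 1.26-fold more in cKO, and the groups overlapped. Transfer RNAs held 0.00293 ± 0.000378% and 0.00345 ± 0.000549%, 1.18-fold more in cKO, also with overlap (SD, n = 4 each). A share depends on what else is in the library. Milk genes, a list of 11 that includes the caseins, held 2.75 ± 0.400% of reads in control and 5.96 ± 1.33% in cKO libraries, without overlap. With the milk genes left out of the total, the MT share was 1.92 ± 0.0481% in control and 2.39 ± 0.0938% in cKO libraries, 1.24-fold more in cKO.

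**Figure D2:**
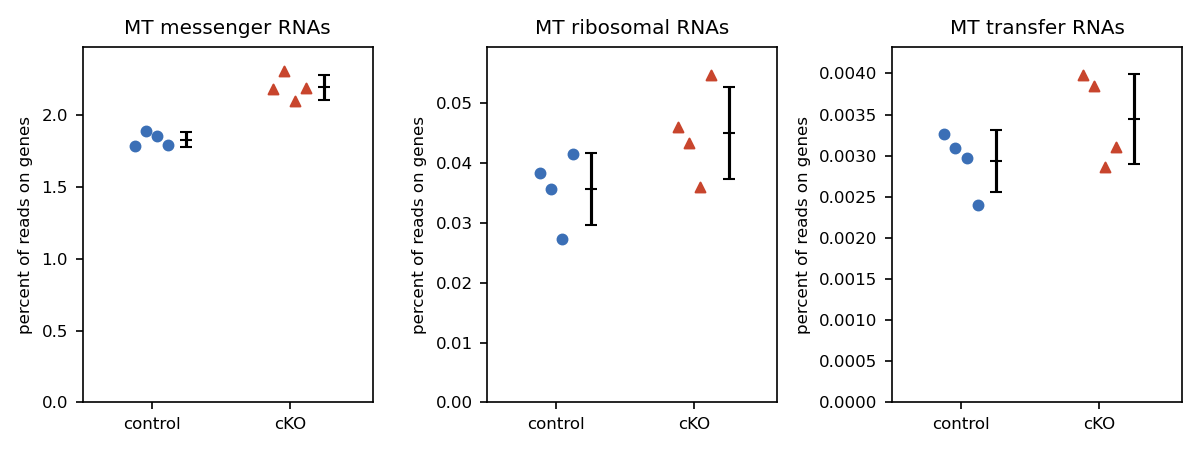
Percent of reads on genes that lay on MT messenger, ribosomal and transfer RNAs in each of the 4 control (circles) and 4 cKO (triangles) libraries, with the group mean and SD as a bar. The messenger RNA shares of the groups did not overlap (control at most 1.89%, cKO at least 2.10%), and the ribosomal and transfer RNA shares did.

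Gene by gene, none of the 30 tested MT genes had an adjusted p under 0.05 (limma, Benjamini-Hochberg over 15143 genes), where 0.892% of all genes tested did (0.588% higher, 0.304% lower). In limma-voom on the reads recovered from the FPKM there were 2 (mt-Co1 and mt-Nd4), with replicates 1 and 2 against 3 and 4 as a block 3 (mt-Co1, mt-Nd4 and mt-Nd5), and without the trend in variance 1 (mt-Co1). At an unadjusted p under 0.05, the threshold without a named adjustment in the study's methods, 10 MT genes were higher and 3 lower in cKO, against 16.4% of all genes in either direction (8.85% higher, 7.53% lower). Over all genes this was 1340 higher and 1140 lower, and with each library scaled to the same FPKM sum 789 higher and 1657 lower. Of the 3 lower genes, mt-Tq had reads in control libraries alone and passed the filter through them, so its call is not independent of the filter. In limma-voom 11 MT genes were higher and 1, mt-Tw, lower, and mt-Tw was also the 1 lower gene when control replicate 1 or control replicate 3 was left out. The 13 became 8 when control replicate 1, control replicate 2 or cKO replicate 2 was left out. The groups did not overlap for 6 higher genes (mt-Nd2, mt-Co1, mt-Nd4, mt-Nd5, mt-Cytb and mt-Tp) and 1 lower gene (mt-Tw), against 10.7% of all genes tested (6.1% higher, 4.6% lower). The lowest adjusted p was 0.108 for mt-Tp and, among the messenger RNAs, 0.113 for mt-Nd4. The log2 fold change on the scale of log2(FPKM + 1) was above 0 for 22 and below 0 for 7 of the 29 tested genes with reads in both groups, with a median of 0.30, and for all 12 tested messenger RNAs, with a median of 0.30. Over all genes tested the median was 0.000715, with 7603 genes above and 7540 below 0.

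**Figure D3:**
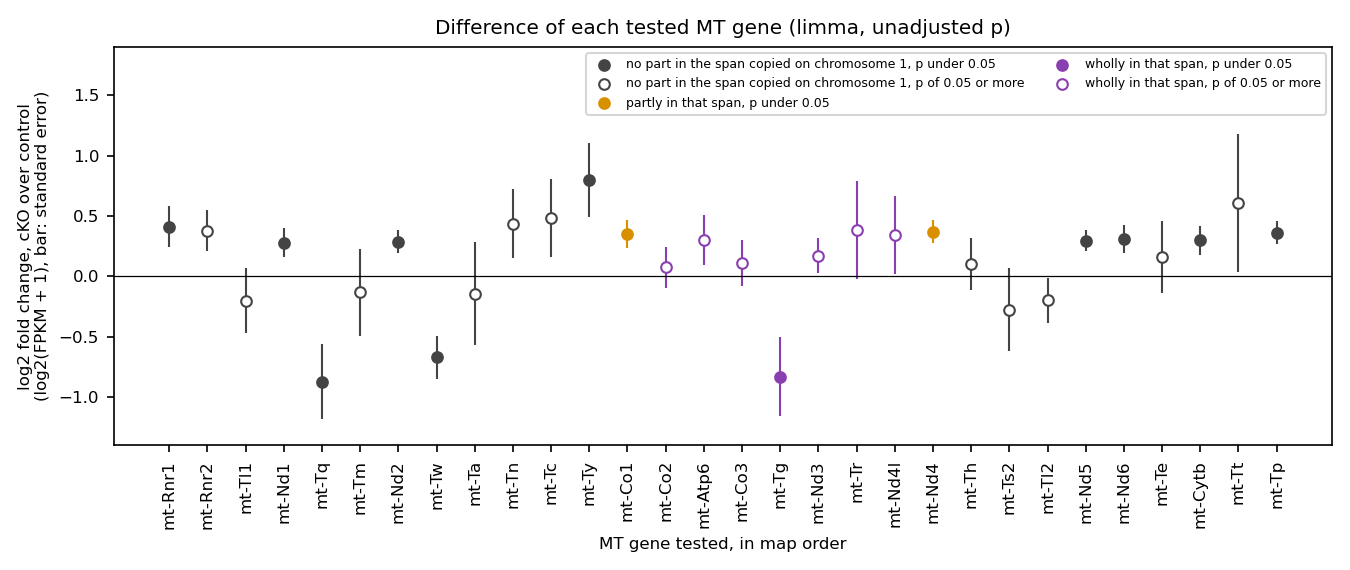
Log2 fold change of cKO over control on the log2(FPKM + 1) scale for the 30 tested MT genes in map order, with the standard error from limma as a bar, filled where the unadjusted p was under 0.05 and coloured by position relative to the stretch copied on chromosome 1. The 7 messenger RNAs not wholly inside that stretch lie between 0.28 and 0.37, and the transfer RNAs scatter on both sides of 0, with mt-Tq, which had no read in cKO, drawn at its fitted value.

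The messenger RNAs outside the copied stretch, or only partly in it, were all higher in cKO by similar amounts. Complex I, the NADH dehydrogenase that feeds electrons into the chain, was represented by mt-Nd1, mt-Nd2, mt-Nd4, mt-Nd5 and mt-Nd6. mt-Nd4 (MT 10167 to 11544) had 1017, 1019, 1177 and 1070 FPKM in control and 1358, 1428, 1281 and 1463 FPKM in cKO replicates 1 to 4. The groups did not overlap, and the mean was 29.1% higher in cKO (1071 ± 75.1 and 1382 ± 80.7 FPKM, SD, n = 4 each). Its log2 fold change was 0.37 with a standard error of 0.096 (limma, unadjusted p = 0.00403, adjusted p = 0.113), at 0.45 within replicates 1 and 2 and 0.29 within replicates 3 and 4.

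mt-Nd5 (MT 11742 to 13565) had 656, 720, 606 and 611 FPKM in control and 849, 800, 748 and 784 FPKM in cKO replicates 1 to 4. The groups did not overlap, and the log2 fold change was 0.30 (limma, standard error 0.0907, unadjusted p = 0.00968, adjusted p = 0.157). mt-Nd2 (MT 3914 to 4951) varied little among controls, at 1316, 1317, 1318 and 1336 FPKM, and had 1577, 1717, 1470 and 1702 FPKM in cKO replicates 1 to 4. These groups too were separate, with a log2 fold change of 0.29 (limma, standard error 0.0938, unadjusted p = 0.0136, adjusted p = 0.180).

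mt-Nd1 (MT 2751 to 3707) had 1738, 1862, 1971 and 2223 FPKM in control and 2116, 2397, 2448 and 2480 FPKM in cKO replicates 1 to 4. Control replicate 4 was above cKO replicate 1, so the groups overlapped, and the log2 fold change was 0.28 (limma, standard error 0.118, unadjusted p = 0.0423, adjusted p = 0.284). mt-Nd6 (MT 13552 to 14070), the only messenger RNA of the minus strand, had 703, 750.5, 915 and 878 FPKM in control and 911, 1029, 957 and 1107 FPKM in cKO replicates 1 to 4. It overlapped by 1 library pair, control replicate 3 above cKO replicate 1, with a log2 fold change of 0.31 (limma, standard error 0.117, unadjusted p = 0.0274, adjusted p = 0.239). The annotated ends of mt-Nd5 and mt-Nd6, on opposite strands, share 14 bases, and whether counting used the strand is not given in the sources used here.

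mt-Cytb (MT 14145 to 15288) encodes cytochrome b of complex III, which passes electrons from ubiquinol to cytochrome c. Its FPKM was 3810, 3970, 4263 and 3986 in control and 4676, 5089, 4642 and 5314 in cKO replicates 1 to 4, without overlap. The mean was 23.0% higher in cKO, with a log2 fold change of 0.30 (limma, standard error 0.119, unadjusted p = 0.0334, adjusted p = 0.256). mt-Co1 (MT 5328 to 6872) encodes the catalytic subunit of complex IV, the oxygen-consuming cytochrome c oxidase, and was the most abundant MT messenger RNA. It had 4331, 4570, 4425 and 4372 FPKM in control and 5596, 5658, 5440 and 5912 FPKM in cKO replicates 1 to 4, again without overlap. The mean was 27.7% higher in cKO, at 5651 ± 197 FPKM against 4424 ± 105 FPKM (SD, n = 4 each). Its log2 fold change was 0.35 (limma, standard error 0.114, unadjusted p = 0.0132, adjusted p = 0.177).

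Across these 7 genes the log2 fold change ran from 0.28 to 0.37, a range smaller than the lowest difference itself. Within replicates 1 and 2 it ran from 0.26 for mt-Nd5 to 0.45 for mt-Nd4, and within replicates 3 and 4 from 0.20 for mt-Nd6 to 0.37 for mt-Co1. With the libraries scaled to the same FPKM sum, to the same sum without the MT genes or to library totals, all 7 remained above 0, between 0.22 and 0.32. The cKO library was the higher in every same-numbered pair for each of the 7, though numbers were not shown to pair the mice. Each of the 7 had an unadjusted p under 0.05 in limma as reported, and 5 of the 7 did not overlap between the groups. mt-Nd5 lost this call with the libraries scaled to the same FPKM sum (limma, unadjusted p = 0.0632) or to the same sum without the MT genes (limma, unadjusted p = 0.0534), and 4 of the 7 genes had it when control replicate 1, control replicate 2, cKO replicate 2 or cKO replicate 4 was left out.

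Of the messenger RNAs wholly inside the copied stretch, none of the 5 tested had an unadjusted p under 0.05, and all 5 had a larger SD in cKO than in control libraries. These log2 fold changes depended on single libraries. Without cKO replicate 4, mt-Atp6 came to 0.49 (limma, unadjusted p = 0.0150) and mt-Nd3 to 0.32 (limma, unadjusted p = 0.0083), and over all libraries left out in turn they ran from 0.18 to 0.49 for mt-Atp6, 0.092 to 0.32 for mt-Nd3 and 0.18 to 0.62 for mt-Nd4l. mt-Co2 (MT 7013 to 7696), the copper-binding subunit of complex IV that receives electrons from cytochrome c, had 52.1, 51.1, 52.4 and 50.6 FPKM in control and 49.99, 69.4, 65.9 and 38.2 FPKM in cKO replicates 1 to 4. The controls were nearly equal, whereas cKO replicates 2 and 3 were above and replicates 1 and 4 below all of them. The SD was 0.843 FPKM in control and 14.5 FPKM in cKO libraries, and the log2 fold change was 0.07 (limma, standard error 0.168, unadjusted p = 0.666, adjusted p = 0.866).

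mt-Co3 (MT 8607 to 9390), another core subunit of complex IV, had 31.7, 32.2, 30.7 and 28.5 FPKM in control and 30.6, 47.0, 37.9 and 22.5 FPKM in cKO replicates 1 to 4. mt-Atp6 (MT 7927 to 8607), of the proton channel of the ATP synthase, had 37.2, 39.1, 31.4 and 29.7 FPKM in control and 37.4, 55.6, 54.6 and 28.3 FPKM. For both genes cKO replicates 2 and 3 were above every control and cKO replicate 4 below every control, as for mt-Co2. The log2 fold changes were 0.11 (limma, standard error 0.189, unadjusted p = 0.563) for mt-Co3 and 0.30 (limma, standard error 0.207, unadjusted p = 0.176) for mt-Atp6.

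mt-Nd3 (MT 9459 to 9806) and mt-Nd4l (MT 9877 to 10173) encode small membrane subunits of complex I. mt-Nd3 had 29.4, 26.5, 24.7 and 29.9 FPKM in control and 31.4, 36.9, 35.8 and 22.6 FPKM in cKO replicates 1 to 4. mt-Nd4l had 18.7, 15.7, 9.45 and 8.43 FPKM in control and 20.9, 22.9, 15.7 and 8.70 FPKM in cKO replicates 1 to 4, with replicates 1 and 2 above replicates 3 and 4 in both groups. Their log2 fold changes were 0.17 (limma, standard error 0.146, unadjusted p = 0.269) and 0.35 (limma, standard error 0.323, unadjusted p = 0.312). Over the 5 tested genes of the stretch, the log2 difference ran from 0.19 for mt-Co2 to 0.33 for mt-Nd4l within replicates 1 and 2, and from -0.04 for mt-Co2 to 0.36 for mt-Nd4l within replicates 3 and 4.

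mt-Atp8, which encodes a small accessory subunit of the ATP synthase, had 0 to 3 reads per library and 7 reads over all 8 libraries, against 3701 for its neighbour mt-Atp6. At this depth no difference between the groups could be detected for it. Its last bases are also the first bases of mt-Atp6, 43 in all, and they are in capitals in its sequence (GENCODE M21, GRCm38, MT 7766 to 7969, plus strand), shown because this gene stood so far below the rest.
mt-Atp8: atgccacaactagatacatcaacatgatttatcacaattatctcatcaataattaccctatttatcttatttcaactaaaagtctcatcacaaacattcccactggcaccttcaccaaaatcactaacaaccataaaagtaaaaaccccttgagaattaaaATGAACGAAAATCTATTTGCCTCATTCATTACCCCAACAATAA

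**Figure D4:**
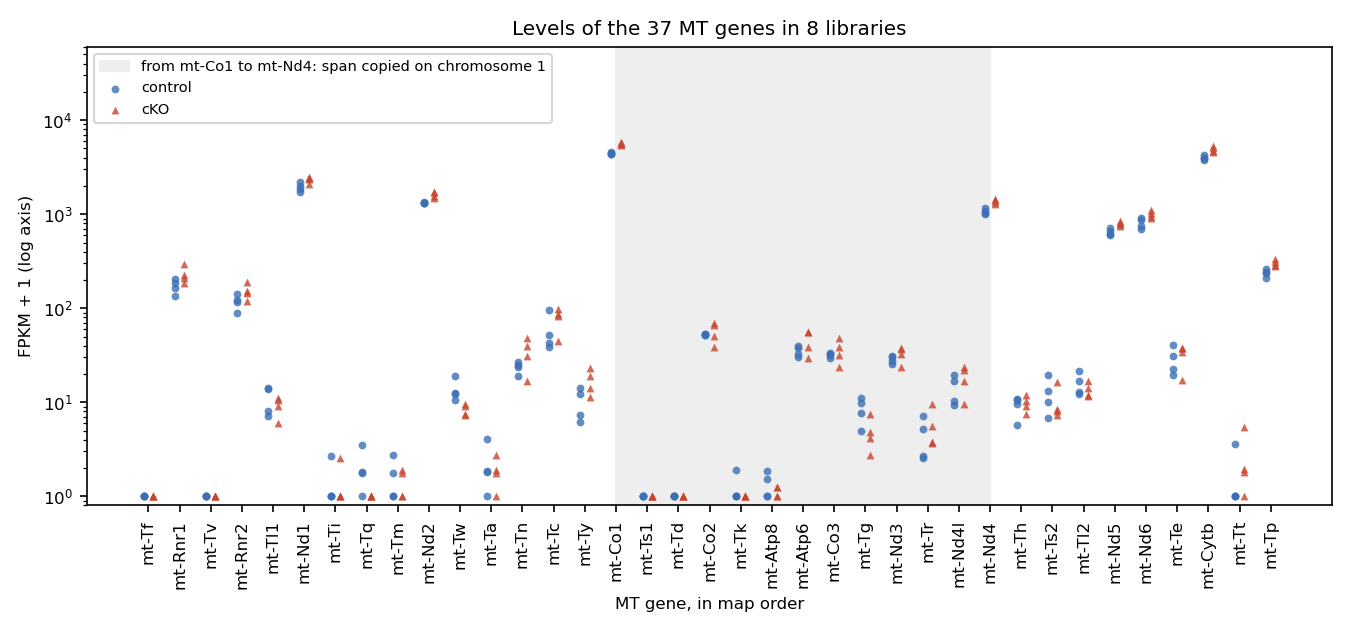
FPKM + 1 (logarithmic axis) of the 37 MT genes in map order, with a circle for each of the 4 control and a triangle for each of the 4 cKO libraries, and the part of the map from mt-Co1 to mt-Nd4 shaded. The messenger RNAs between mt-Co1 and mt-Nd4 stand at 0 to 69.4 FPKM in single libraries, and the 7 other messenger RNAs at 606 FPKM or more.

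The chromosome 1 copies themselves had reads, and their levels relative to the MT genes that they match differed widely. Gm28661 had 32.9 ± 1.66 FPKM in control and 37 ± 7.12 FPKM in cKO libraries, beside 51.6 and 55.9 FPKM for mt-Co2 (SD, n = 4 each). Gm10925 had 37.3 ± 4.43 and 44.4 ± 12.8 FPKM, beside 34.3 and 43.96 FPKM for mt-Atp6, and Gm28437 had 22.1 ± 1.42 and 24.8 ± 7.49 FPKM, beside 30.8 and 34.5 FPKM for mt-Co3. Gm10222 had 7.63 ± 2.47 and 8.33 ± 1.79 FPKM, beside 13.1 and 17.0 FPKM for mt-Nd4l. These 4 copies were closer in level to their MT gene than the other 3 were. Gm28438 had 5.11 ± 2.18 and 6.81 ± 2.44 FPKM, beside 27.6 and 31.7 FPKM for mt-Nd3. Gm29216 had 21.9 ± 1.42 and 24.6 ± 6.21 FPKM, beside 4424 and 5651 FPKM for mt-Co1, and Gm28439 had 9.80 ± 3.69 and 10.1 ± 2.59 FPKM, beside 1071 and 1382 FPKM for mt-Nd4, of which these 2 copy only a part. The order of the copies across libraries followed that of the MT genes inside the stretch in part. Gm28661, Gm10925, Gm28437 and Gm28438 were each highest in cKO replicate 2, as were mt-Co2, mt-Atp6, mt-Co3 and mt-Nd3.

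In reads, mt-Co2 had 485 to 783 per library and Gm28661 363 to 520. Gm29216, the copy of the last part of mt-Co1, had 169 to 261 reads per library, whereas mt-Co1 as a whole had 114535 to 169643. Gm28439, the copy of the first part of mt-Nd4, had 110 to 231 reads, whereas mt-Nd4 had 24281 to 37442. None of the 7 copies had an unadjusted p under 0.05 in limma. Of 20 nuclear copies of MT genes in the table, the 7 included, 11 were tested and 1, AC154652.2 on chromosome 17, was higher at an unadjusted p under 0.05 (0.646 ± 0.197 and 1.01 ± 0.123 FPKM, SD, n = 4 each). Of all genes tested, 8.85% were higher at this threshold. Adding the reads of the 7 chromosome 1 copies to the MT reads left the difference in MT share at 0.375 percentage points.

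**Figure D5:**
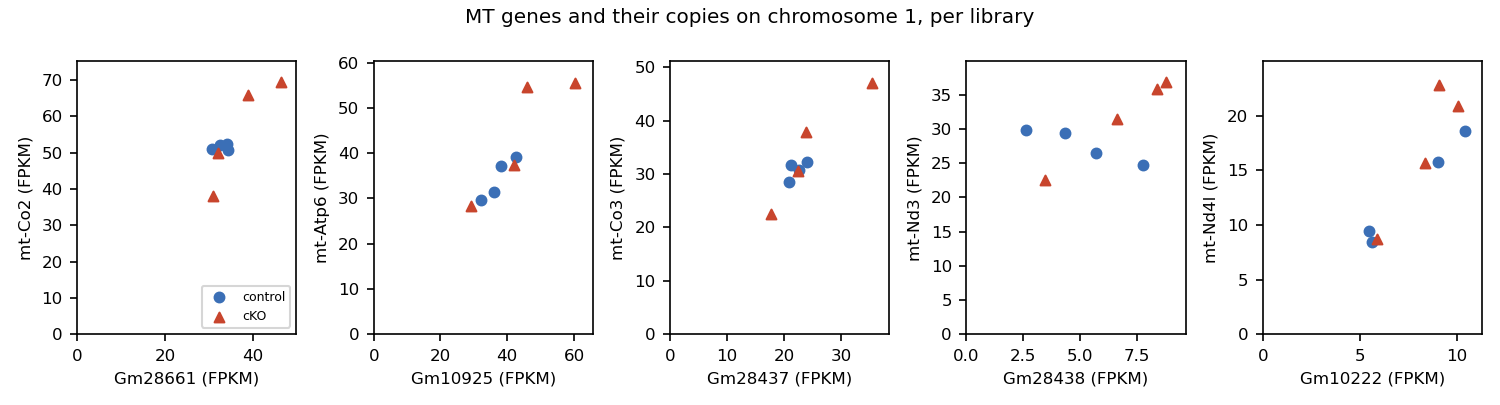
FPKM of 5 MT genes (vertical axes) against FPKM of the chromosome 1 copy of each (horizontal axes) in the 4 control (circles) and 4 cKO (triangles) libraries. The 4 control libraries lie close together for mt-Co2 and mt-Co3, and cKO replicates 2 and 4 mark the upper and lower ends of the cKO libraries for mt-Co2, mt-Atp6, mt-Co3 and mt-Nd3.

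Whether the messenger RNAs differed by the same factor was tested from the share of each in the summed FPKM of all 13, which does not depend on scaling between libraries. mt-Co1 held 30.8 ± 1.04% of this sum in control and 31.6 ± 0.671% in cKO libraries, mt-Cytb 27.8 ± 0.643% and 27.5 ± 0.541%, and mt-Nd1 13.5 ± 1.15% and 13.2 ± 0.809% (SD, n = 4 each). In 12 such comparisons no share had an unadjusted p under 0.05 and none was without overlap between the groups. The log2 difference of the share ran from -0.24 for mt-Co2 to 0.05 for mt-Nd4l, and p from 0.286 to 1 (exact permutation test, two-sided, 4 libraries against 4, where 0.0286 is the smallest p possible).

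The intervals show what size of difference in a share the 8 libraries could have missed. The sum includes the gene itself, so a share moves less than the gene's own factor, most so for mt-Co1 and mt-Cytb. From the inverted exact permutation test, the 95% interval of the log2 difference of the share was -0.04 to 0.12 for mt-Co1, -0.09 to 0.05 for mt-Cytb, -0.09 to 0.15 for mt-Nd4 and -0.16 to 0.07 for mt-Nd2. It was wider for mt-Nd6 (-0.22 to 0.20), mt-Nd5 (-0.27 to 0.27) and mt-Nd1 (-0.31 to 0.17). Inside the copied stretch it was much wider, from -0.91 to 0.15 for mt-Co2 and from -1.56 to 1.11 for mt-Nd4l. Among the 7 messenger RNAs not inside the stretch alone, the log2 differences of the share ran from -0.04 to 0.05. A different factor was thus not detected for any messenger RNA tested. The narrowest intervals of the share were those of mt-Cytb and mt-Co1, to which the limit of the shared sum applies most.

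In these libraries the ribosomal RNAs were at lower FPKM than the abundant messenger RNAs. Whether library preparation selected messenger RNA or removed ribosomal RNA is not given in the sources used here. The values therefore do not rank these classes of RNA in the tissue. mt-Rnr1 (MT 70 to 1024), the RNA of the small mitochondrial ribosomal subunit, had 184, 164, 135 and 201.5 FPKM in control and 226, 208, 184 and 298 FPKM in cKO replicates 1 to 4. mt-Rnr2 (MT 1094 to 2675), of the large subunit, had 121, 115, 88.4 and 140 FPKM in control and 152, 144, 119 and 190 FPKM. For each, replicate 4 was the highest and replicate 3 the lowest of both groups, and the groups overlapped. The cKO library was the higher in all 4 same-numbered pairs, but the numbers were not shown to pair the mice. The log2 fold change was 0.41 for mt-Rnr1 (limma, standard error 0.167, unadjusted p = 0.0355, adjusted p = 0.263) and 0.38 for mt-Rnr2 (limma, standard error 0.168, unadjusted p = 0.0511, adjusted p = 0.308). Within replicates 1 and 2 it was 0.32 and 0.33, and within replicates 3 and 4 0.50 and 0.43. With 1 library left out in turn it ran from 0.28 to 0.51 for mt-Rnr1, which kept an unadjusted p under 0.05 in 4 of 8 fits, and from 0.25 to 0.49 for mt-Rnr2, which had one in 2 of 8, without control replicate 4 or cKO replicate 3. Relative to the summed messenger RNAs, the log2 difference was 0.10 for mt-Rnr1, with a 95% interval of -0.36 to 0.79, and 0.07 for mt-Rnr2, with an interval of -0.47 to 0.76 (inverted exact permutation test).

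The transfer RNA genes had few reads, 4460 over all 22 genes and 8 libraries, and differed in both directions. The 8 genes on the minus strand held 86.5% of these reads and the 14 on the plus strand, where the larger RNAs other than mt-Nd6 are encoded, held 13.5%. The values do not separate mature transfer RNAs from precursors. The 3 genes that the results turn on are shown whole, 5′ to 3′ in the sense of the gene, from GENCODE M21 (GRCm38). mt-Tp, the proline transfer RNA gene, lies at MT 15356 to 15422 on the minus strand, mt-Ty, for tyrosine, at MT 5260 to 5326 on the minus strand, and mt-Tw, for tryptophan, at MT 4950 to 5016 on the plus strand.
mt-Tp: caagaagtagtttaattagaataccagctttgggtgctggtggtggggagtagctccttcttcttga
mt-Ty: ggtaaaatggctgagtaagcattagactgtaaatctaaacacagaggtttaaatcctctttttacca
mt-Tw: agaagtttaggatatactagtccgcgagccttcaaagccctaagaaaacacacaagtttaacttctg

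mt-Tp had 2539 of the transfer RNA reads, more than the other 21 genes together, and was higher in cKO by about as much as the messenger RNAs. Its FPKM was 241, 236, 258 and 208 in control and 334, 313, 280 and 287 in cKO replicates 1 to 4, from 262 to 432 reads per library. All cKO libraries exceeded all controls, with means of 236 ± 20.7 and 304 ± 24.8 FPKM (SD, n = 4 each). The log2 fold change was 0.36 (limma, standard error 0.0924, unadjusted p = 0.00355, adjusted p = 0.108), at 0.44 within replicates 1 and 2 and 0.29 within replicates 3 and 4. Relative to the summed messenger RNAs the difference was 0.05, with a 95% interval of -0.21 to 0.44 (inverted exact permutation test).

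mt-Ty had 5.17, 11.2, 13.4 and 6.36 FPKM in control and 22.4, 18.1, 13.2 and 10.4 FPKM in cKO replicates 1 to 4, from 6 to 29 reads in a library. The groups overlapped, and the log2 fold change was 0.80 (limma, standard error 0.307, unadjusted p = 0.0290, adjusted p = 0.243). Replicates 1 and 2 alone gave 1.29, and replicates 3 and 4 gave 0.31. The unadjusted p was above 0.05 without control replicate 1 or 4 or cKO replicate 1 or 2, at 0.0703 to 0.0807. mt-Tc, for cysteine, the transfer RNA gene next in reads after mt-Tp, had 37.9 to 95.3 FPKM in control and 43.9 to 97.4 FPKM in cKO libraries (log2 fold change 0.49 in limma, standard error 0.322, unadjusted p = 0.165, with 0.39 within replicates 1 and 2 and 0.58 within replicates 3 and 4). It was 0.77 without control replicate 1 (limma, unadjusted p = 0.0175) and 0.73 without cKO replicate 3 (limma, unadjusted p = 0.0337). mt-Tn, for asparagine, likewise moved from 0.44 (limma, unadjusted p = 0.163) to 0.74 without cKO replicate 3 (limma, unadjusted p = 0.00236). The log2 difference of mt-Tn was 0.95 within replicates 1 and 2 but -0.08 within replicates 3 and 4.

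Of the transfer RNA genes with reads in both groups, mt-Tw and mt-Tg had lower values in cKO at an unadjusted p under 0.05. mt-Tw had 18.1, 9.48, 11.6 and 11.1 FPKM in control and 8.505, 6.33, 6.58 and 8.04 FPKM in cKO replicates 1 to 4, from 7 to 21 reads per library. The groups did not overlap, and the log2 fold change was -0.67 (limma, standard error 0.177, unadjusted p = 0.0044, adjusted p = 0.119). The annotation of mt-Tw begins within the last 2 bases of mt-Nd2, which was higher in cKO. mt-Tg, for glycine, inside the copied stretch, had 2 to 12 reads per library, 6.79, 10.2, 8.78 and 3.92 FPKM in control and 3.81, 1.78, 6.48 and 3.17 FPKM in cKO replicates 1 to 4, with overlap (log2 fold change -0.83 in limma, standard error 0.326, unadjusted p = 0.0314, adjusted p = 0.250). By set of replicates, mt-Tw differed by -0.76 (replicates 1 and 2) and -0.58 (replicates 3 and 4) on the log2 scale, and mt-Tg by -1.35 and -0.31. With 1 library left out in turn, mt-Tw kept its unadjusted p under 0.05 in 8 of 8 fits and mt-Tg in 2 of 8, without control replicate 4 or cKO replicate 3. In limma-voom the unadjusted p was 0.0491 for mt-Tw and 0.0716 for mt-Tg. mt-Tq, for glutamine, had 5 reads over the 4 control libraries and 0 in cKO, with at most 3 in any library. With so few reads, no fold or p is printed for it. Its limma call is still counted among the 13 MT genes, and the 3 lower ones, at an unadjusted p under 0.05. Its fitted value is also drawn in the plot of log2 fold changes in map order.

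Of the 15 tested transfer RNA genes with reads in both groups, 8 had a log2 fold change above 0 and 7 below 0, with a median of 0.10. mt-Tm, for methionine and 1 of the 7, reached the filter through its control libraries (0.626 FPKM in control and 0.416 FPKM in cKO), so its direction is not independent of the filter. By strand, 5 of the 6 minus-strand genes and 3 of the 9 plus-strand genes among them were above 0, with medians of 0.40 and -0.20. Apart from mt-Tp and mt-Tc these rest on 5 to 284 reads over the 8 libraries, so unequal changes of single transfer RNAs were mostly not detectable at this depth. The genes without a read allow up to 3 reads in a library, counting error only. Other tested genes with at most 5 reads in every library were mt-Tm, mt-Ta and mt-Tt.

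Genes of the nucleus that serve the mitochondrial genome were mostly without a difference that passed the tests, and none of the 6 lists below had a gene with an adjusted p under 0.05 in limma or in limma-voom. The lists were chosen with earlier results of these data known, and their counts stand beside 8.85% of all genes higher and 7.53% lower at an unadjusted p under 0.05. Of 19 tested genes for transcription and maintenance of mitochondrial DNA, 3 were higher and 0 lower at an unadjusted p under 0.05, with a median log2 fold change of 0.06. Tfb1m, a methyltransferase for mitochondrial ribosomal RNA, had 0.652 ± 0.155 FPKM in control and 1.01 ± 0.1104 FPKM in cKO libraries (SD, n = 4 each, log2 fold change 0.29 in limma, unadjusted p = 0.0137). Its means differed 1.55-fold, and the 1 added to each FPKM shrinks the log2 fold change at such low levels. Tefm, the elongation factor of the mitochondrial RNA polymerase, had 3.48 ± 0.536 and 4.38 ± 0.704 FPKM (log2 fold change 0.26 in limma, unadjusted p = 0.0496). Top1mt, the mitochondrial topoisomerase, had 3.87 ± 0.844 and 4.68 ± 0.489 FPKM (log2 fold change 0.23 in limma, unadjusted p = 0.106).

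Of 29 tested genes for processing, stability and decay of mitochondrial RNA, 3 were higher and 1 lower at an unadjusted p under 0.05, with a median of 0.05. Rexo2, an exonuclease for short RNA remnants, had 22.1 ± 1.73 FPKM in control and 25.6 ± 1.27 FPKM in cKO libraries, and 1110008L16Rik, the catalytic subunit of mitochondrial RNase P, had 7.53 ± 0.575 and 9.89 ± 1.53 FPKM (SD, n = 4 each). Nsun4, a methyltransferase of the mitochondrial ribosome, was lower in every cKO library than in any control (1.89 ± 0.0766 and 1.45 ± 0.131 FPKM; log2 fold change -0.24 in limma, unadjusted p = 0.0085). Of 7 tested regulators of mitochondrial biogenesis, none had an unadjusted p under 0.05, and the median was 0.03. The 3 with the largest log2 fold changes among them were Esrra at 0.26, Gabpa at 0.09 and Pprc1 at 0.06.

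Of 14 markers of mitochondrial membranes and mass, 3 were higher and 0 lower at an unadjusted p under 0.05, with a median of 0.08. They were the chaperonins Hspd1 (164 ± 11.8 and 234 ± 39.0 FPKM) and Hspe1 (78.6 ± 5.17 and 117 ± 33.8 FPKM) and the citrate synthase gene Cs (38.0 ± 2.28 and 45.0 ± 2.53 FPKM, SD, n = 4 each). Hspd1 and Hspe1, neighbours on chromosome 1, had log2 fold changes of 0.50 and 0.53, and Cs one of 0.24 (limma, adjusted p = 0.101, 0.180 and 0.132). Hspd1 and Hspe1 were highest in cKO replicate 4, at 276 and 164 FPKM, and the groups overlapped for Hspe1.

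Nuclear-encoded subunits of the respiratory chain, which assemble with the products of the MT messenger RNAs, had a median log2 fold change of 0.11, beside 0.30 for the MT messenger RNAs, and the sets were not tested against each other. Of 77 tested, 6 were higher and 0 lower at an unadjusted p under 0.05, and the higher ones were a smaller share than the 8.85% of all genes. Ndufc2 and Ndufb9, accessory subunits of complex I, had 69.8 ± 11.9 and 96.8 ± 13.2 FPKM, and 30.0 ± 6.21 and 40.4 ± 6.65 FPKM, in control and cKO libraries (SD, n = 4 each). Their log2 fold changes of 0.47 and 0.43 were above that of every tested MT messenger RNA (limma, adjusted p = 0.148 and 0.238). Uqcrc1 of complex III was uneven among controls, at 7.17 FPKM in replicate 1 and 1.12 to 1.62 in the others. Of 76 tested mitochondrial ribosomal protein genes, 4 were higher and 0 lower at an unadjusted p under 0.05, again a smaller share than the 8.85% of all genes, with a median of 0.06. Mrps18b had 9.46 ± 0.229 and 11.5 ± 0.751 FPKM and Mrps6 19.3 ± 1.47 and 23.2 ± 2.02 FPKM (SD, n = 4 each), and Mrps23 ranged from 0.259 to 7.49 FPKM among libraries.

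Other measures moved with the groups as well, and their part in the MT levels was not tested. The counts at an unadjusted p under 0.05 that follow stand beside 8.85% of all genes higher and 7.53% lower. Of 11 milk genes, 10 were higher at an unadjusted p under 0.05 and 5 at an adjusted p under 0.05, and their summed level was 4414 to 6614 FPKM in control and 10615 to 19164 FPKM in cKO libraries. Of 5 tested leukocyte markers 3 were lower, with a summed level of 21.4 to 46.2 FPKM in control and 16.2 to 24.7 FPKM in cKO libraries. Of 5 tested erythroid markers 2 were lower (22.5 to 30.0 and 14.5 to 28.0 FPKM summed). Of 4 tested adipocyte markers 3 were higher (81.2 to 126 and 106 to 147 FPKM summed), 1 of them, Cidec, at an adjusted p under 0.05 (0.386 ± 0.0668 and 1.56 ± 0.549 FPKM, SD, n = 4 each, limma, adjusted p = 0.0377), and Lep was at 0 in control replicates 1 and 3.

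Fibroblast markers had 0 of 5 and endothelial markers 1 of 4 at an unadjusted p under 0.05, the latter lower, with summed levels of 397 to 834 and 270 to 629 FPKM for the first and 61.9 to 70.8 and 44.7 to 69.1 FPKM for the second. Of 8 myoepithelial markers, Oxtr was higher and Krt14 and Trp63 were lower, and of 9 luminal markers Elf5 was higher. Their summed levels overlapped, at 1606 to 2186 and 1508 to 2078 FPKM for the myoepithelial and 4491 to 5689 and 4391 to 5689 FPKM for the luminal list. All 3 tested nuclear-retained RNAs had a higher mean level in cKO, with overlap between the groups. Their median log2 fold change was 0.35, beside 0.30 for the MT messenger RNAs. Malat1 had 94.0 ± 19.2 FPKM in control and 131 ± 27.1 FPKM in cKO libraries (log2 fold change 0.48 in limma, unadjusted p = 0.0229), Xist had 42.8 ± 10.4 and 53.6 ± 4.89 FPKM (0.35, unadjusted p = 0.0621) and Neat1 had 26.015 ± 4.02 and 31.5 ± 5.02 FPKM (0.26, unadjusted p = 0.0783, SD, n = 4 each). Of 12 genes of the response to tissue digestion 1, the heat shock gene Hspa1a, was higher (52.0 ± 17.0 and 128 ± 104 FPKM, SD, n = 4 each), with 284 FPKM in cKO replicate 4. Cidec and Adipoq, which make up 2 of the 3 adipocyte calls, and Acta1 among the skeletal muscle genes (0.280 ± 0.131 and 0.801 ± 0.336 FPKM, SD, n = 4 each), reached the filter of 0.5 FPKM through their cKO libraries, so that a higher value there is not independent of the filter, and 1 of the 3 leukocyte calls reached it through the control libraries. The skeletal muscle list stood at 1.55 FPKM or less summed in every library.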

How the data were processed

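Libraries of 4 control and 4 cKO mice (1 per mouse) were grouped by their labels. The authors prepared them with the NEBNext Ultra RNA kit, mapped them with Hisat2 to the GRCm38 genome, and deposited FPKM per gene. The submitters' processing notes also name featureCounts (1.5.0-p3), StringTie (1.3.3b) and mm9, but 99.68% of the 55394 identifiers found in GENCODE M21 had the GRCm38 coordinates of that release. The authors' own threshold was p under 0.05. FPKM multiplied by gene length were whole multiples of 1 step per library for 100% of values (tolerance 0.01 reads), which gave the reads, and the steps included median-of-ratios size factors.

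limma (3.58.1, R 4.3.3, trend, no block) was run on log2(FPKM + 1) for 15143 genes with a mean of at least 0.5 FPKM. It was chosen because the deposited values are FPKM, and limma-voom on the recovered reads was run as an alternative. Exact permutation tests (4 against 4, two-sided) allow no p under 0.0286. Shares of reads, medians and levels are descriptions. Sequence windows were compared with GENCODE M21 transcripts, and the genome itself was not used here. The members and gene lists were chosen with earlier results of these data known. Beside MT genes and Bmpr1a, each list's genes with an adjusted p under 0.05 or among its 3 largest log2 fold changes could be named, and markers as a check (Krt8 and Lep were named after their values were seen). The limma steps were tested on simulated data, where most large changes but few as small as those of the MT messenger RNAs were recovered. The absence of an adjusted call therefore does not show that an MT gene was unchanged.

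Reads on genes were 16123108 to 19896988 per library. Counting error matters for transfer RNA genes and mt-Atp8, and elsewhere the number of mice limits precision. Alternatives tried were another pseudocount, 3 other scalings, blocks, filters, no trend, limma-voom on recovered reads and each library left out. Restricting sums to the 7 messenger RNAs not inside the copied stretch, and adding the copies to the MT share, were chosen after the values were seen.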

Additional observations from a re-analysis of the deposited data

Results flagged for a closer look

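Of 104 groups of 4 libraries examined, 8 held a library far from the other 3 by Dixon's criterion, where chance sets apart about 1 in 20 groups, here 5.2. In 6 cases the value was that of a transfer RNA gene with at most 18 reads in the library set apart. mt-Ti was 1.67 FPKM in control replicate 2 and 1.56 FPKM in cKO replicate 4, each from 2 reads, and 0 in the others of its group. mt-Tk was 0.888 FPKM in control replicate 2, from 1 read, and 0 in the other controls. mt-Tt was 2.58 FPKM in control replicate 2, from 3 reads, and 0 in the other controls. mt-Ts2 was 15.4 FPKM in cKO replicate 2 and 6.39 to 7.47 FPKM in the other cKO libraries.

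mt-Te was 16.4 FPKM in cKO replicate 3 and 33.6 to 36.9 FPKM in the other cKO libraries. mt-Nd2 was 1336 FPKM in control replicate 4, where the other controls lay between 1316 and 1318 FPKM, a small difference set apart by the closeness of the others. Reads on genes numbered 18778823 in control replicate 4 and 16456480 to 16642619 in the other controls.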

How the results depend on the processing

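Adjusted p under 0.05 was reached by 0 MT genes as reported, by 3 with replicates 1 and 2 against 3 and 4 as a block, by 1 without the trend and by 2 with limma-voom. At an unadjusted p under 0.05, 13 MT genes became 7 without a filter on low values and 8 to 15 with 1 library left out. All genes with an adjusted p under 0.05 were 135, and 50 with the replicate block, 442 with the block of sets, 15 without a filter, 252 with limma-voom and 0 to 78 with 1 library left out, with 0 without control replicate 4. The share of unadjusted calls that were higher was 54.0%, and 32.3% in TPM, 32.5% with library totals and 36.97% with the sum without MT genes, where the median of all genes moved to -0.05, -0.05 and -0.04. The median log2 fold change of the messenger RNAs was 0.30, and 0.24 in TPM. The difference in MT share was 0.375 percentage points, and 0.464 with milk genes left out of the total. Of the genes without a call, 6 reversed when 1 library was left out, with ranges of -0.32 to 0.013 for mt-Tm (above 0 without cKO replicate 2 or 4), -0.46 to 0.22 for mt-Ta (above 0 without control replicate 4 or cKO replicate 1), -0.040 to 0.24 for mt-Co2 (below 0 without cKO replicate 2 or 3), -0.048 to 0.30 for mt-Co3 (below 0 without cKO replicate 2), -0.11 to 0.22 for mt-Th and -0.0013 to 0.43 for mt-Te (both below 0 without control replicate 4). The causes were not tested. The 7 messenger RNAs not inside the copied stretch were higher in cKO in all 19 fits, at 0.22 to 0.42, and 4 to 7 of them had an unadjusted p under 0.05. Same-numbered libraries of the groups deviated with correlations of 0.0797 to 0.137, others with -0.21 to 0.178, and 3 of 8 libraries correlated best with their own number, so the numbers were not shown to pair the mice. With the replicate number as a block, 0 MT genes had an adjusted p under 0.05 and 13 were higher and 3 lower at an unadjusted p under 0.05, and no MT call changed at the adjusted threshold. Depth limits the transfer RNA genes and mt-Atp8.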
